A study of Mus musculus with 12 samples.

Results

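The scramble cells are the control of a knockdown study in Neuro-2a, an established mouse neuroblastoma line derived from a spontaneous tumour. They were chosen by label alone and make up 4 of the 12 libraries of the series, and every one of the 55401 Ensembl gene identifiers in their count files was kept. The other 8 libraries come from cells in which the RNA-binding protein gene Rbmx (4 libraries) or its autosomal retrocopy Rbmxl1 (4 libraries) was knocked down, and they enter here only as counts of how often a gene found in scramble cells was also found there. Each culture was a single well that received, by lipofection, 1 µg of a GFP plasmid and 3 µg of a CAG-driven plasmid with a scramble sequence in a miR30 backbone. The knockdown wells received the same GFP plasmid and the same total amount of plasmid, split over 3 sequences against Rbmx or 2 against Rbmxl1. All groups were grown in 5% serum, and cells that showed GFP were collected on a flow sorter 48 hours after transfection. The baseline is therefore one of transfected, trypsinised and sorted cells, and untransfected Neuro-2a cells were not analysed here. Stranded libraries were made from total RNA after removal of ribosomal RNA, so RNAs without a poly(A) tail were retained. The labels name the libraries biological replicates 1 to 4, and give no culture, passage or day for a number. The questions asked of these libraries were which RNAs fill the transcriptome, which lineage and transmitter genes the cells express, and where RBMX and its relatives rank among RNA-binding proteins.

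Neuroblastoma arises from the sympathoadrenal branch of the neural crest, whose cells become sympathetic neurons or adrenal chromaffin cells. That fate is set by a circuit of transcription factors that includes PHOX2A, HAND2, GATA2 and GATA3, which activate the genes for noradrenaline synthesis, tyrosine hydroxylase (Th) and dopamine beta-hydroxylase (Dbh). The proteins measured by rank here, among them hnRNP, SR and FET proteins, bind pre-mRNA and steer its splicing, export, stability and translation.

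Sequences are shown for the RNA Rn7sk and for the start regions of the genes Th and Dbh. 7SK (Rn7sk) is a short RNA polymerase III transcript that holds the elongation factor P-TEFb inactive. By reads assigned to genes, it was the most abundant RNA per length in every library. Its gene lies at chr9:78175303-78175633 on the minus strand of GRCm38, 331 bases long. The first 300 bases of the transcript follow, from GENCODE M21. Capitals mark GATC, searched on the transcript strand, a motif known from the 5′ hairpin where HEXIM binds, which occurs at positions 13, 42 and 64 from the 5′ end.
Rn7sk: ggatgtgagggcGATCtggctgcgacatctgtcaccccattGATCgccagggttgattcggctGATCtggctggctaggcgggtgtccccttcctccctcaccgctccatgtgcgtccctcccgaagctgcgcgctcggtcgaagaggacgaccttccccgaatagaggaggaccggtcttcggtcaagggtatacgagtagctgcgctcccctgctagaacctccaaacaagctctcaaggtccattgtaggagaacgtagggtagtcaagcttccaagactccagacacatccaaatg
The start regions of Th and Dbh are shown because these genes encode enzymes of noradrenaline synthesis. Both are RefSeq windows on GRCm38.p6 from 250 bases before to 50 bases after the start. The Th window is chr7:142899946-142900245, minus strand, and its capitals mark the cyclic AMP response element TGACGTCA, a palindrome, which begins 45 bases before the start. The Dbh window is chr2:27165257-27165556, plus strand, and its capitals mark ATTA, the reverse strand of the homeodomain core TAAT that PHOX2A is known to bind, beginning 157, 147 and 65 bases before the start.
Th: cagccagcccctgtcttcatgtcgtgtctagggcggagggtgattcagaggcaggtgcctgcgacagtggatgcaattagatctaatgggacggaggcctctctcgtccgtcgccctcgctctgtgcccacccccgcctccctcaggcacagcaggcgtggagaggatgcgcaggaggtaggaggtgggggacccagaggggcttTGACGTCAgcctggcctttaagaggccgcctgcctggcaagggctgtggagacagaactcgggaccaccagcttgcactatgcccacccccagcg
Dbh: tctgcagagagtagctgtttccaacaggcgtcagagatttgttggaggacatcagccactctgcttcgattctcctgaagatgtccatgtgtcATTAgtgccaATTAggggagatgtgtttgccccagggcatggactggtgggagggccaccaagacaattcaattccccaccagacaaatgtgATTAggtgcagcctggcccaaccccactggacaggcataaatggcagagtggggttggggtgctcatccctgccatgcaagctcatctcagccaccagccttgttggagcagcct
Over all 32851 RefSeq windows of this length, 588 (1.79%) held TGACGTCA, and 58.0% held TAAT on either strand, with a median of 1 match. The first motif was thus uncommon and the second was not. A match describes letters and does not show that a factor was bound there.

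The scramble libraries held 43.8, 43.8, 52.2 and 49.9 M reads in genes. Levels are given as counts-per-million values of the reads in genes (CPM) for a single gene, and per kilobase of merged exons, scaled to the same total in each library (TPM), wherever genes are compared with each other. A gene with no count in a library could still have had up to 0.0574 to 0.0685 CPM, the level of 3 counts, and this limit covers counting error only. Across genes, log2 CPM correlated at a Pearson r of 0.996 between libraries 1 and 2 and between 3 and 4, and at 0.979 to 0.984 between libraries of different pairs. Libraries 1 and 2 thus stood apart from 3 and 4, so values are given library by library where they matter. How many of all genes separate these pairs without overlap was not counted. Since all levels are shares of a library, a lower level can mean fewer cells with an RNA or less of it per cell, and these cannot be told apart.

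Protein-coding genes took 97.0%, 97.1%, 97.2% and 97.0% of the reads in genes in libraries 1 to 4. The next classes were far smaller: small RNAs filed as misc_RNA, which include 7SK, took 0.709% ± 0.117 (SD, n = 4), lincRNAs 0.644% ± 0.023, and processed pseudogenes 0.397% ± 0.035. Residual ribosomal RNA assigned to genes differed most between libraries, at 0.227%, 0.175%, 0.389% and 0.455%, and libraries 3 and 4 were higher than 1 and 2. These shares do not give the whole of the residual ribosomal RNA. Reads with several alignments, 20.6% to 25.7% of each scramble file, were not assigned to genes. Of the 50-base stretches of the leading ribosomal RNA entry, CT010467.1, 66.4% recur in other annotated genes. The 13 mitochondrial messenger RNAs took 1.18% ± 0.060 of the reads, and the 83 cytosolic ribosomal protein genes 4.01% ± 0.455. Reads were spread over many genes: 1123 to 1226 genes were needed to reach 50% of the reads, the 10 leading genes held 4.41% to 5.02%, and the 100 leading genes 14.7% to 15.9%. A gene was counted as present where it reached 1 TPM in every library, near absent where no library had more than 3 counts, and low otherwise. By this measure 11358 of 21897 protein-coding genes (51.9%) were present, 7986 were near absent and 2553 were low, and this share is the background for the lists that follow. Present were also 307 of 5614 lincRNA genes, 165 of 1507 snoRNA genes and 1074 of 9936 processed pseudogenes, though a pseudogene shares sequence with its parent and its reads are uncertain. In all, 27047 identifiers had no count in any of the 4 libraries.

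Eef1a1, the elongation factor that brings aminoacyl-tRNA to the ribosome, led by CPM, with 8050, 7875, 6657 and 7060 CPM. Rn7sk followed with 7556, 7871, 5360 and 6318 CPM, and Eef2, the translocation factor, with 7057, 6705, 5547 and 5936. All 3 were higher in libraries 1 and 2 than in 3 and 4, without overlap. The mitochondrial cytochrome oxidase subunit mt-Co1 had the opposite order, at 5307, 5595, 6183 and 6537 CPM, as had beta-actin (Actb), at 3722, 4218, 4394 and 4614. Map1b, a microtubule-associated protein of growing axons, was sixth with 3788 ± 275 CPM, but only 94th among protein-coding genes per length, because its transcript is long. The huge ubiquitin ligase Huwe1 had 1900 ± 99.4 CPM and rank 387 per length for the same reason. The ribosomal RNA fragment CT010467.1 was ninth, and its 2264, 1749, 3885 and 4548 CPM made it the most variable of the 20 leading genes. Malat1, a nuclear long non-coding RNA, had 2707 ± 244 CPM. The rest of the 20 were Hsp90ab1, mt-Cytb, Tubb5, Rpl4, Rpsa, Pabpc1, Atp5b, Hspa8, Dpysl3, Scd2 and Pkm, from 3761 ± 587 CPM (Hsp90ab1) down to 1757 ± 336 (Pkm).

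**Figure D1:**
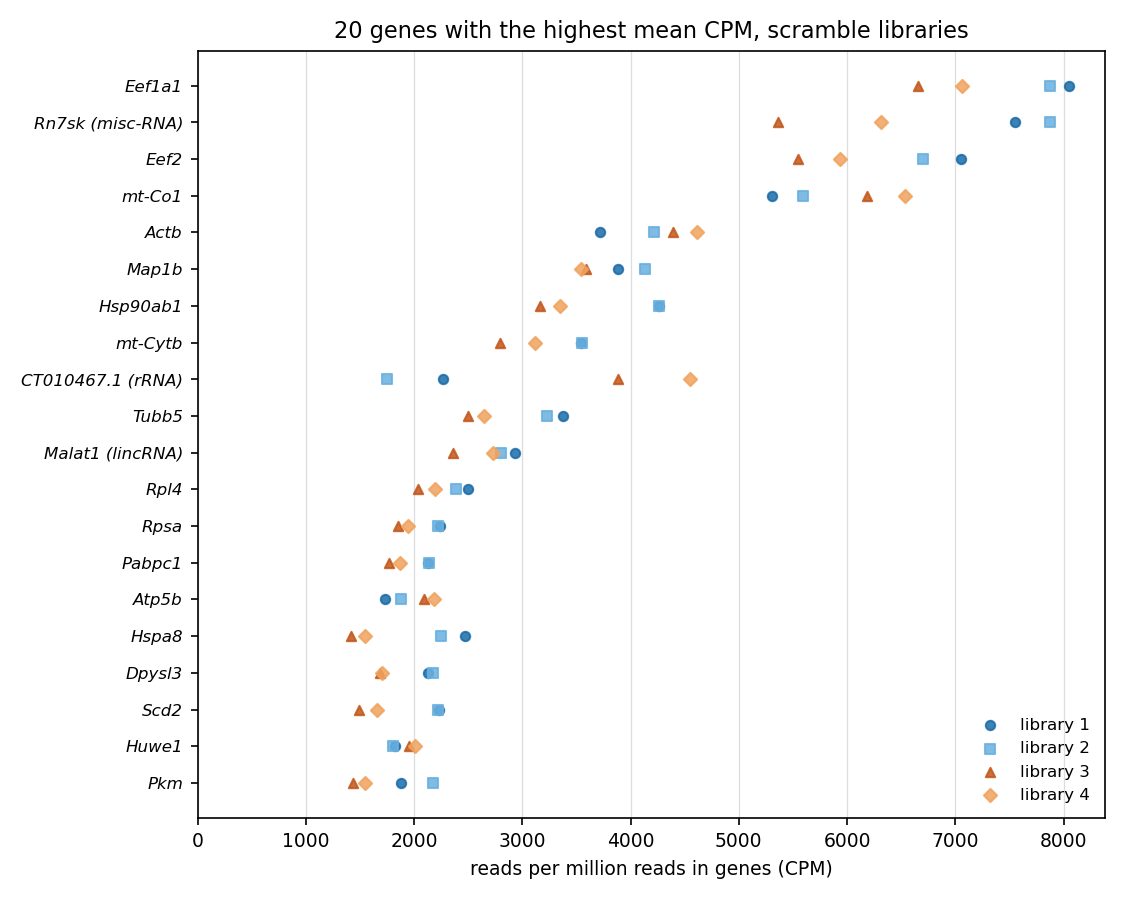
The 20 genes with the highest mean CPM are listed from the top on the vertical axis, with each scramble library's CPM on the horizontal axis and 1 marker per library. Eef1a1, Rn7sk and Eef2 are higher in libraries 1 and 2, and mt-Co1, Actb and CT010467.1 are higher in libraries 3 and 4.

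Per length, the order changed. Rn7sk reached 81597, 84262, 60066 and 69158 TPM, over 4 times the level of any other gene in every library. Its values are uncertain: 68.1% of its 50-base stretches also occur in other annotated genes, and reads with several alignments were not assigned to genes. TPM also made no correction for fragment length. Among protein-coding genes mt-Co1 led with 12277, 12832, 14845 and 15332 TPM, ahead of Eef1a1 with 10725 ± 769, of which 60.6% of 50-base stretches recur elsewhere, and mt-Cytb with 10250 ± 963. Ribosomal protein genes filled much of the rest, with Rplp1, a stalk protein, at 6465 ± 345 TPM, Rps15 at 4473 ± 570, Rpl4 at 4098 ± 305, Rpl8 at 3796 ± 197 and Rplp0 at 3759 ± 83.8. Rps2, Rpsa, Rpl7a, the ferritin light chain Ftl1, the cytokine Mif, mt-Nd1 and the actin Actg1 closed the 20, between 2031 and 2750 TPM. The only member of the pan-neuronal list among the 20 was Prph, the intermediate filament peripherin of peripheral neurons, thirteenth with 2977, 2702, 3202 and 3060 TPM. No 50-base stretch of the longest Prph transcript recurs in another annotated gene, and no annotated gene overlaps Prph at chr15:99055174-99058978 on GRCm38. Mitochondrial messenger RNAs, which are cut from shared precursors, had uneven counted levels. In TPM, mt-Co1 stood 48.1 ± 3.07 times above mt-Co2 and 76.7 ± 9.73 times above mt-Co3. The lowest genes lay side by side between mt-Co1 and mt-Nd4 (1638 TPM): mt-Co2 (287), mt-Atp8 (24.4), mt-Atp6 (64.3), mt-Co3 (181), mt-Nd3 (56.9) and mt-Nd4l (19.8). Of the 50-base stretches of mt-Co1, 51.1% recur in other annotated genes, and this was not counted for the lowest genes. Reads with several alignments were not assigned, and whether reads of these genes also align elsewhere in the genome was not tested. The mitochondrial ribosomal RNAs, which are targets of ribosomal depletion, were at 290 ± 104 TPM (mt-Rnr1) and 61.3 ± 21.8 TPM (mt-Rnr2).

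Of 26 regulators of the sympathoadrenal lineage, 19 were present (73.1%), 9 of them at 100 TPM or more. The list includes Myc, Mycn and Mycl, all counted as present, and Myc was among the 9. The noradrenergic circuit was strongly represented. Hand2, a helix-loop-helix factor needed for sympathetic neurons, had 499, 547, 579 and 531 TPM. Phox2a, a homeodomain activator of Dbh, had 479, 433, 326 and 306 TPM and was higher in libraries 1 and 2 than in 3 and 4. The zinc finger factor Gata2 followed the pattern of Phox2a with 418, 344, 275 and 269 TPM, and Gata3 was steadier with 112, 99.3, 107 and 115. Also present were Sox4, which shares 54.1% of its 50-base stretches with other genes, at 325 ± 21.4 TPM, Lmo1, a neuroblastoma susceptibility gene, at 225 ± 11.2, Insm1 at 150 ± 29.6 and Tbx2 at 78.7 ± 11.2. Isl1, a LIM homeodomain factor of sympathetic neurons, had 50.5 ± 9.96 TPM. The list had gaps: Tfap2a, a neural crest factor, and Insm2 were among 3 regulators with no count in any library, and Hand1 and Lmo3 had at most 5 counts.

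The MYC family was carried by Myc. Myc had 608, 522, 600 and 524 TPM, against 11.3, 11.7, 13.2 and 14.3 for Mycn, the member amplified in aggressive human neuroblastoma, and 2.66 ± 0.342 for Mycl. The ratio of Myc to Mycn was 53.9, 44.6, 45.5 and 36.8 in libraries 1 to 4, with a mean of 45.2 ± 6.99. Neither Myc nor Mycn overlaps another annotated gene, and the longest transcript of each shares no 50-base stretch with another gene.

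Regulators of the mesenchymal state, the alternative state described for neuroblastoma cells, were less represented, with 6 of 19 present (31.6%). The glucocorticoid receptor Nr3c1 had 57.0 ± 1.44 TPM, Fosl2 50.6 ± 2.65, the Hippo effector Wwtr1 31.5 ± 6.39 and Notch2 22 ± 3.13, while Maml2 and Runx2 were under 5 TPM. Twist1, Tbx18, Meox2 and Yap1 had no count, and the defining factor Prrx1 had at most 1 count in a library. Wwtr1 encodes TAZ, the paralog of YAP1, so of this pair of coactivators only TAZ was found. The summed level of this list was 164 to 173 TPM, against 2938 to 3453 TPM for the sympathoadrenal list. The second sum includes Myc, at 522 to 608 TPM.

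Genes expressed in most neurons were present at 26 of 30 (86.7%), and 16 of them reached 100 TPM. After Prph, the highest were the deubiquitinase Uchl1 with 1259, 1264, 1383 and 1340 TPM and Dpysl3, a growth cone protein, with 1150, 1166, 945 and 933. Neuron-specific tubulin Tubb3 had 800, 758, 618 and 587 TPM, and the growth cone protein Gap43 had 420, 441, 377 and 365. Dpysl3, Tubb3 and Gap43 were all lower in libraries 3 and 4, and Uchl1 was higher there. The chromogranins of dense-core granules were at 529 ± 142 TPM (Chgb) and 183 ± 4.21 TPM (Chga), and secretogranin Scg2 at 329 ± 27.8. Stmn3, Ncam1 and L1cam had 518 ± 57.9, 380 ± 61.4 and 207 ± 9.77 TPM. The neurofilament genes split. Peripherin, Ina (134 ± 4.62 TPM) and the heavy chain Nefh (76.7 ± 6.76 TPM) were present, but the light chain Nefl had 1, 1, 1 and 2 counts and the medium chain Nefm had 0, 1, 0 and 0. Dcx and Rbfox3, the latter encoding the mature neuron antigen NeuN, were low, with 1.22 ± 0.337 TPM for Rbfox3, while its relative Rbfox2 had 178 ± 9.47.

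Regional regulators of the central nervous system were present in 8 of 34 cases (23.5%), all under 20 TPM. They included Pax5 at 8.23 ± 1.36, Nr4a2 at 7.58 ± 0.607, Dlx2 at 5.87 ± 0.730, Pax6 at 5.84 ± 0.434, Pax3 at 4.84 ± 0.825, Dlx1 at 3.80 ± 0.130 and Lhx6 at 3.02 ± 0.520. The forebrain factors Emx1 and Emx2 and the midbrain factors Otx2, En1 and En2 were among 20 with no count in any library. Some of the 8 also act outside the brain, as Pax3 does in neural crest and Pax5 in B cells.

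**Figure D2:**
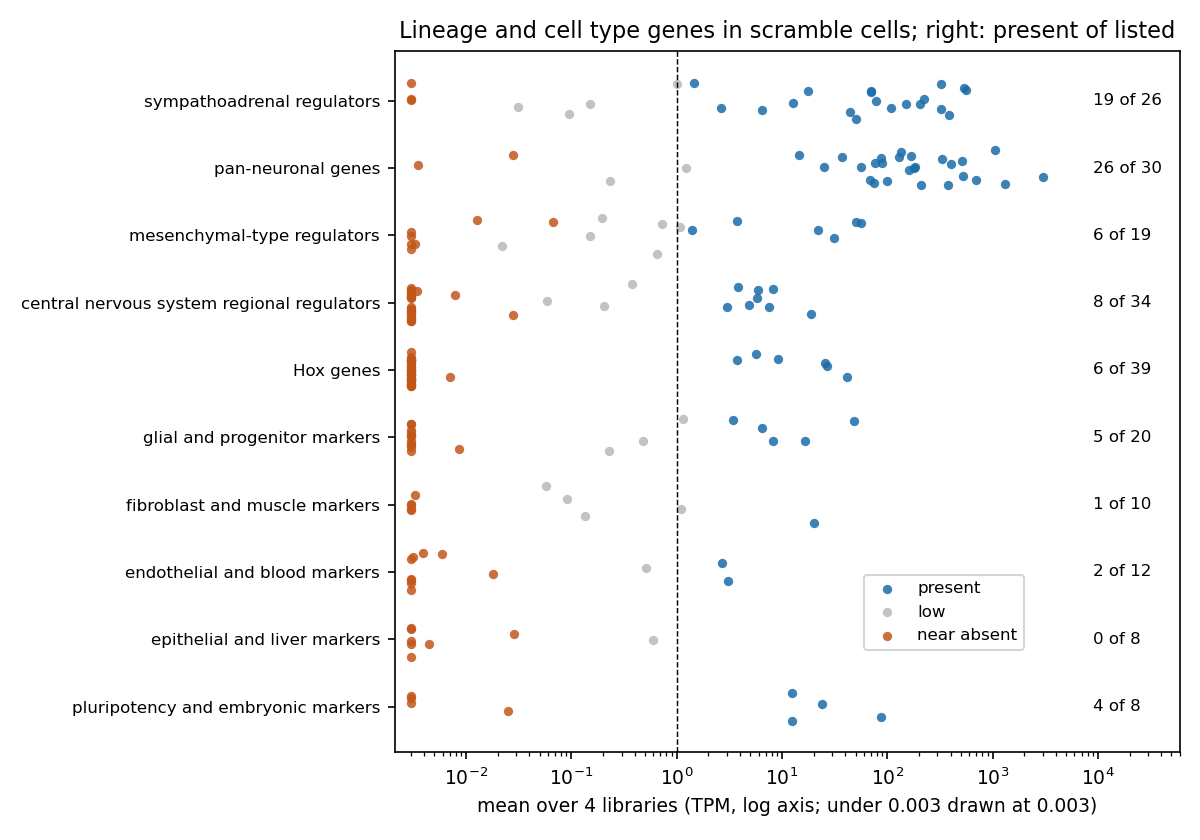
Each point is 1 gene of a lineage or cell type list, placed by its mean TPM over the 4 scramble libraries on a log axis and coloured as present, low or near absent; means under 0.003 TPM are drawn at 0.003, and vertical scatter within a row carries no value. The sympathoadrenal and pan-neuronal lists lie mainly to the right of the dashed line at 1 TPM, with 19 of 26 and 26 of 30 genes present, and the epithelial list has 0 of 8.

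The Hox genes, which record position along the body axis, split by cluster. Of 39 genes, 6 were present, and all 6 lay in the HoxC cluster. Hoxc10 had 53.9, 42.4, 33.8 and 37.0 TPM, Hoxc6 had 31.0, 25.6, 26.4 and 23.9, and Hoxc9 had 26.8, 27.3, 24.5 and 24.2. These 3 were the highest of the cluster in every library, and Hoxc10 was highest in library 1. Hoxc4 (9.19 ± 1.59 TPM), Hoxc8 (5.73 ± 1.33) and Hoxc5 (3.72 ± 0.841) were lower. The genes at the 5′ end of the same cluster, Hoxc11, Hoxc12 and Hoxc13, had no count, so counts were found for each HoxC gene from paralog group 4 to group 10 and for none beyond. The 11 HoxA and 9 HoxD genes had no count in any library, and the 10 HoxB genes had a single count together, for Hoxb9 in library 4. The same 6 genes were present, and the same 33 near absent, in every one of the 8 knockdown libraries. Hoxc10 and Hoxc5 each overlap another annotated gene on the same strand, so their levels are less certain than those of Hoxc6 and Hoxc9.

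**Figure D3:**
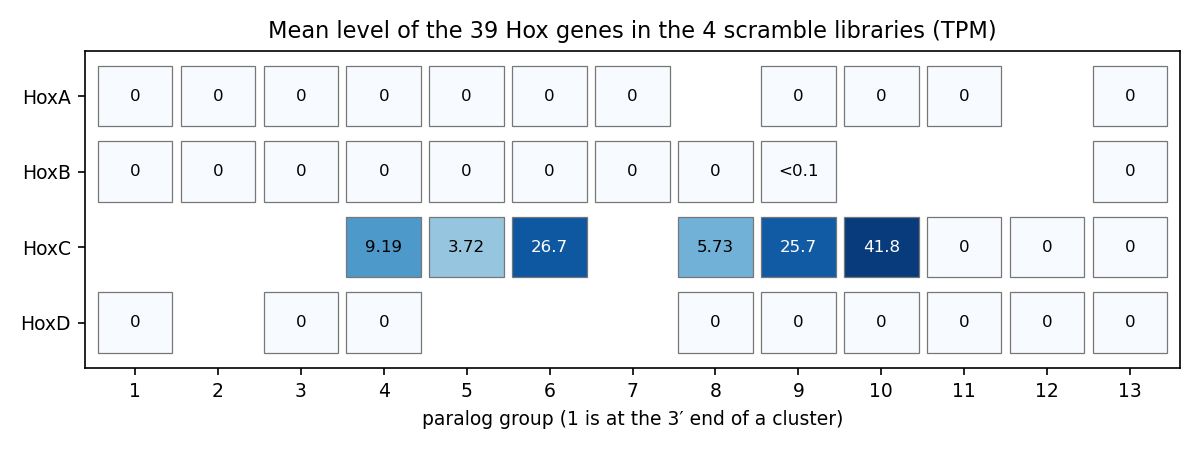
Each box is 1 of the 39 Hox genes, in rows by cluster and columns by paralog group, with its mean TPM over the 4 scramble libraries printed and shaded on a log scale. The 6 shaded boxes are HoxC genes from group 4 to group 10, up to 41.8 TPM for Hoxc10, and all other boxes read 0 or, for Hoxb9, under 0.1.

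Markers of other cell types were mostly near absent. Of 20 glial and progenitor markers, 5 were present: Sox9 at 60.9, 55.8, 37.7 and 39.1 TPM, Nes at 16.5 ± 1.23, Erbb3 at 8.14 ± 1.07, Mbp at 6.50 ± 0.572 and Cspg4 at 3.42 ± 0.465. Their summed level over the list was 74.6 to 97.1 TPM. The defining Schwann cell and glial genes Sox10 and S100b had no count, nor had Sox2, Foxd3, Olig1, Olig2, Aqp4 or Fabp7. The growth factor receptor Pdgfrb, at 20.2 ± 0.874 TPM, was the only fibroblast or muscle marker present of 10, and the collagen gene Col1a1 had 3 to 9 counts. Pecam1 (3.08 ± 0.318 TPM) and Cd68 (2.72 ± 0.956 TPM) were present of 12 endothelial and blood markers, but Ptprc, Cldn5 and Hbb-bs had no count. None of 8 epithelial and liver markers was present, and Epcam, Krt18 and Alb had no count. Of 8 pluripotency and embryonic markers, 4 were present: the let-7 inhibitors Lin28a (102, 100, 72.8 and 71.6 TPM) and Lin28b (24.2 ± 3.67 TPM), the telomerase catalytic subunit Tert (12.5 ± 1.06 TPM) and Dppa4 (12.4 ± 0.897 TPM). Pou5f1, Zfp42 and Sall4 had no count and Nanog at most 1 in a library.

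The catecholamine pathway was present in part. Th, the rate-limiting enzyme that makes DOPA from tyrosine, had 26.3, 20.4, 31.0 and 30.6 TPM. Dbh, which makes noradrenaline from dopamine, had 9.15, 10.4, 9.18 and 11.9 TPM. Ddc, the decarboxylase that links them, was low, with 50, 87, 41 and 45 counts and 0.969 ± 0.420 TPM, and only library 2 was over 1 TPM. Gch1, which makes the cofactor tetrahydrobiopterin, was higher than all 3 enzymes, with 76.2, 79.0, 87.5 and 90.6 TPM. The vesicular monoamine transporter Slc18a2 had 41.2, 37.4, 32.9 and 27.9 TPM and its chromaffin paralog Slc18a1 1.37 ± 0.205. Among the genes with no count in any library were Pnmt, which makes adrenaline, the noradrenaline and dopamine transporters Slc6a2 and Slc6a3, and both monoamine oxidases, Maoa and Maob. In the 8 knockdown libraries Ddc had 1.20 to 2.63 TPM and so was present there by the same threshold, and Slc18a1 had 0.776 to 1.70 and was not. These genes lie near the threshold in all groups, and no test was made of them.

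The levels of Th and Dbh were below those of Hand2 and Phox2a: per length, Th stood at rank 6128 and Dbh at rank 8904 of the protein-coding genes, against 192 for Hand2 and 279 for Phox2a. A promoter window was at hand for 40 of the transmitter genes, of which 12 were present, 9 low and 19 near absent. TGACGTCA occurred in Th, Slc18a2 and Cartpt among those present and in Sst, which had no count, among those near absent.

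Each of the other small-molecule transmitter systems had 1 or 2 genes present. Of 5 acetylcholine genes only the esterase Ache was present, with 17.9, 14.98, 6.88 and 5.62 TPM, higher in libraries 1 and 2. The synthetic enzyme Chat had 0, 0, 4 and 0 counts, and the vesicular and choline transporters Slc18a3 and Slc5a7 had none. For glutamate, the glutaminase Gls2 (16.8 ± 4.31 TPM) was present, whereas the vesicular transporters Slc17a6 and Slc17a8 had no count and Slc17a7 had 26 to 32. For GABA and glycine, the glycine transporter Slc6a9, which 3 genes overlap on the opposite strand, had 119, 124, 164 and 162 TPM and the GABA-degrading enzyme Abat 34.5 ± 1.65. The GABA-synthesising Gad1 had 0, 0, 1 and 0 counts. Both tryptophan hydroxylases, the first enzymes of serotonin synthesis, were present at low levels, with 7.54, 7.51, 8.31 and 7.74 TPM for Tph2 and 4.00 ± 0.316 for Tph1. Hdc and the serotonin transporter Slc6a4 were low, and Hnmt had no count.

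Of 18 neuropeptide genes, 5 were present. Vgf, a granule protein induced by nerve growth factor, was by far the highest transmitter gene, with 725, 796, 1159 and 1099 TPM, and was higher in libraries 3 and 4. Npy, which sympathetic neurons release with noradrenaline, had 54.5, 54.0, 61.5 and 55.5 TPM. Cartpt had 23.8 ± 3.26 TPM, Nmb 3.11 ± 0.617 and Pomc 2.99 ± 0.736. Sst, Tac1, Penk, Pdyn and Adcyap1 were among 10 with no count.

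**Figure D4:**
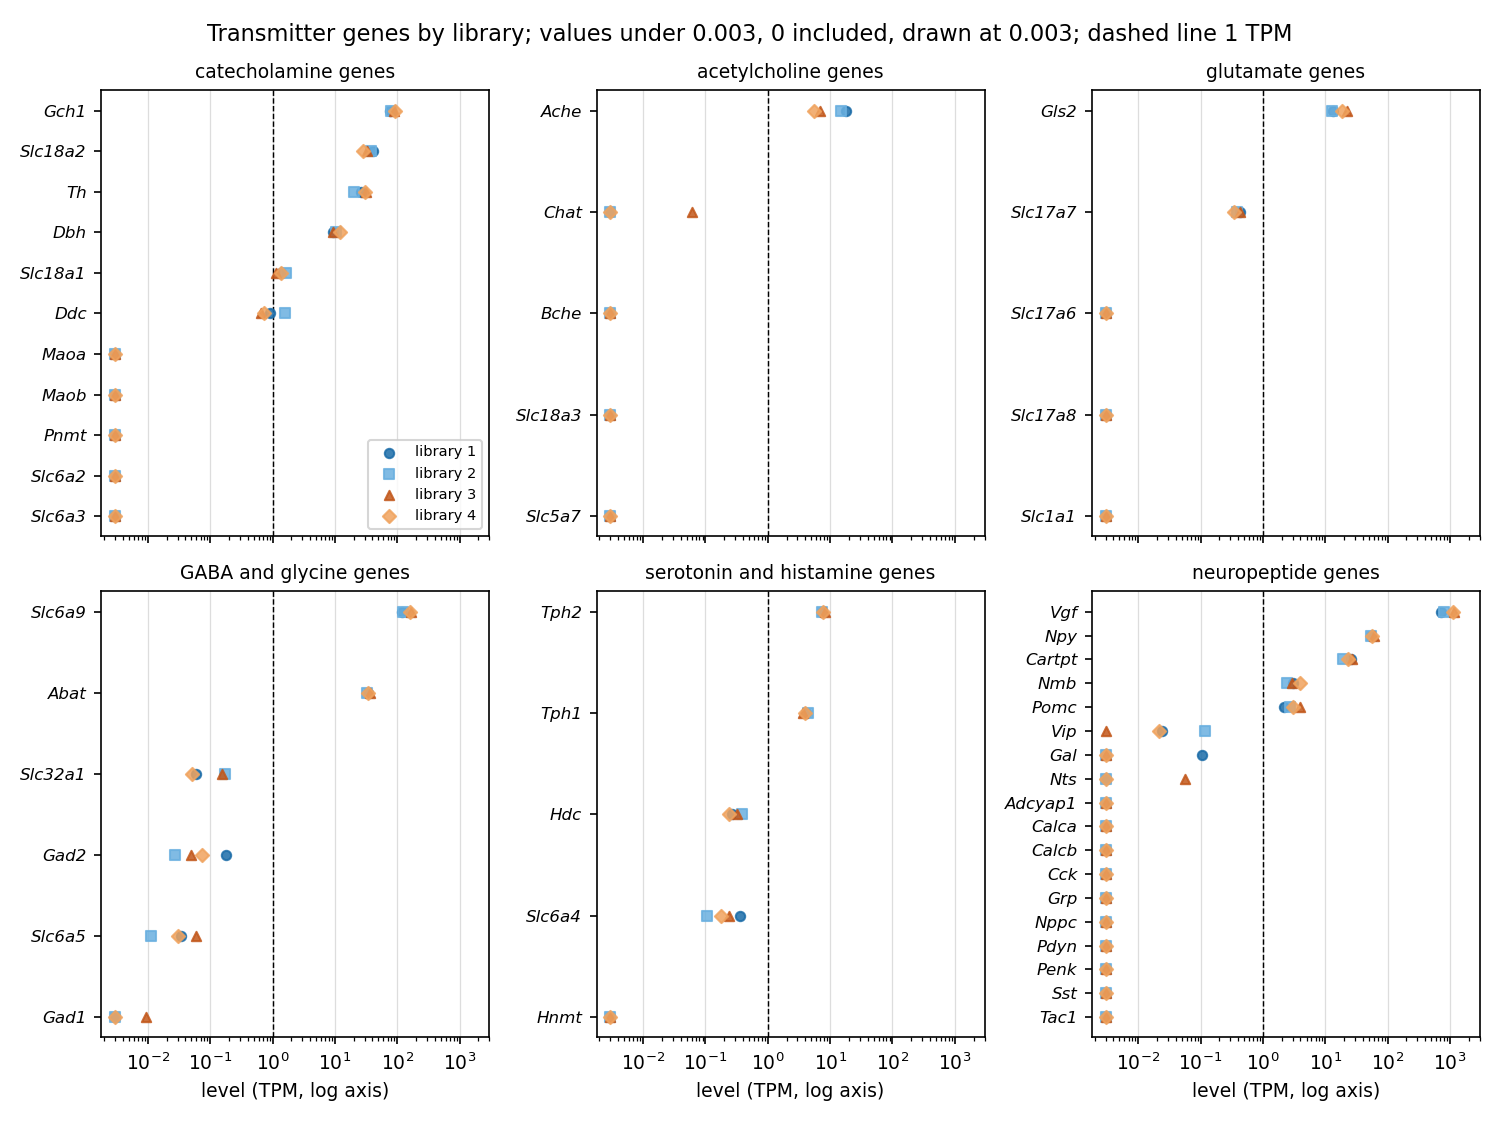
Each panel is a transmitter system with 50 of the 53 listed genes in all on the vertical axis and the TPM of each scramble library on a log axis, 1 marker per library; values under 0.003, 0 included, are drawn at 0.003. Catecholamine genes fall into a present set from Gch1 to Slc18a1, Ddc at the dashed line of 1 TPM, and 5 genes with no count, and Vgf stands highest among the peptides.

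Receptors followed the same sparse pattern outside the growth factor receptors. Of 15 acetylcholine receptor genes 5 were present, led by Chrna3, the ganglionic nicotinic subunit, with 106, 111, 119 and 123 TPM, and the muscarinic receptor Chrm4 with 130, 123, 92.4 and 97.1. Chrnb2 had 33.8 ± 1.22 TPM, Chrna7 7.75 ± 2.21 and Chrna5 4.59 ± 0.544. Chrnb4, which pairs with Chrna3 in ganglia, had 27 to 46 counts and was low. Of 23 glutamate receptor genes 5 were present, among them Grik5 at 98.5 ± 11.2 TPM, the obligatory NMDA receptor subunit Grin1 at 35.3 ± 10.2, Grin2d at 8.94 ± 1.05 and Gria2 at 3.98 ± 0.824. Gria1, Gria3 and Gria4 and the kainate subunits Grik1 to Grik4 had no count, so Grik5, which forms channels only with another kainate subunit, was found without any of them. Of 19 GABA and glycine receptor genes 2 were present, among them Gabbr1 (27.3 ± 5.44 TPM). Its partner Gabbr2 had at most 2 counts, and Gabra2 and Gabra3 had none. Of 25 monoamine receptor genes, the ion channel Htr3a (7.25, 10.2, 17.4 and 18.4 TPM), Htr6 (4.29 ± 0.201) and Adra2b (3.13 ± 0.904) were present, and Drd1 and Drd2 had no count.

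Growth factor and related receptors were present at 12 of 23 (52.2%), close to the 51.9% of all protein-coding genes, but 4 of them exceeded 100 TPM. Ret, the receptor of the GDNF family, had 394, 396, 334 and 317 TPM, while its co-receptors Gfra1, Gfra2 and Gfra4 were low and Gfra3 near absent. The neurotrophin receptors Ngfr and Ntrk3 had 244 ± 15.9 and 24.5 ± 2.08 TPM, and Ntrk2 (TrkB) had no count. The cannabinoid receptor Cnr1, listed with them, had 138 ± 24.0 TPM. Alk, the receptor kinase mutated in familial neuroblastoma, had 52.8, 52.9, 64.7 and 66.2 TPM, and its relative Ltk 9.34 ± 2.64. Igf1r, Fgfr1 and Insr had 57.1 ± 9.44, 40.9 ± 1.55 and 40.3 ± 1.07 TPM, and Fgfr3 and Egfr had 6.29 ± 0.747 and 5.46 ± 0.894. Kit had at most 1 count, and Erbb4, Met and Fgfr2 had none.

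Of the listed sex chromosome genes, the X-linked partners were present and the 8 Y-linked genes were near absent. Xist, the long non-coding RNA that coats an inactive X chromosome, had 287, 304, 278 and 245 TPM. It overlaps other annotated genes, among them its antisense partner Tsix, which had 4 or 5 counts per library. The Y-linked genes Ddx3y, Eif2s3y, Zfy1, Zfy2 and Usp9y had no count, Kdm5d and Sry had at most 1 and Uty at most 3. Their X-linked partners were present, from Ddx3x with 305 ± 15.5 TPM to Kdm6a with 11.2 ± 0.725. Of the 175 protein-coding genes annotated on chromosome Y, 1 was present (Gm47283, named after its values were seen). The labels do not give the sex of the animal from which the line came.

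RNA-binding proteins were ranked by TPM over 157 listed genes, of which 141 were present (89.8%, against 51.9% of all protein-coding genes). The 2 leading genes encode abundant proteins of nucleolus and cytoplasm: Npm1, nucleophosmin, with 1386, 1600, 1147 and 1231 TPM and Pabpc1, the poly(A)-binding protein, with 1161, 1158, 1003 and 1035. They held ranks 1 and 2 in every library, but by the longest annotated transcript instead of merged exons Pabpc1 came first. Pcbp3, a poly(C)-binding protein of the hnRNP list, held rank 3 in every library, with 961, 887, 829 and 783 TPM, ahead of its broadly expressed relatives Pcbp1 (765 ± 45.5 TPM) and Pcbp2 (764 ± 14.04 TPM). By the longest transcript the order of Pcbp3 and Pcbp2 turned, with 774 and 958 TPM. No 50-base stretch of the longest Pcbp3 transcript recurs in other genes, whereas 53.0% of those of Pcbp2 do. Hnrnpa1 followed with 723 ± 22.9 TPM, then Larp1, a regulator of ribosomal protein mRNAs, with 551 ± 50.3, and Khsrp with 474 ± 50.8. Srsf2, the first SR protein by mean level, had 345, 320, 595 and 460 TPM. Ptbp1, a splicing repressor, had 342, 361, 462 and 458, and both were higher in libraries 3 and 4. Hnrnpab (388 ± 38.7 TPM), Srrm2 (386 ± 46.3), Hnrnpk (353 ± 10.4), Hnrnpa0 (327 ± 12.2) and Ybx3 (326 ± 69.0) completed the 15. Several neighbours in this order differed by less than the SD of either gene. They were Pcbp1 and Pcbp2, Khsrp and Srsf2, Srsf2 and Ptbp1, Ptbp1 and Hnrnpab, Hnrnpab and Srrm2, and Hnrnpa0 and Ybx3.

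By family, all 29 hnRNP genes were present, with a median of 156 TPM and a range of 20.8 to 865. All 16 FET and related genes were present too, with a median of 67.2 TPM. Of these, Ewsr1 had 193 ± 25.1 TPM, Taf15 122 ± 5.14 and Tardbp 112 ± 15.8. Of 17 SR genes 16 were present (median 97.3 TPM), and of 30 cytoplasmic RNA-binding proteins 28 (median 139 TPM). Of the tissue splicing regulators, 22 of 31 were present, with a median of 38.7 TPM. Its neuronal members Nova2 and Nova1 had 90.4 ± 15.8 and 17.4 ± 2.54 TPM, and the neuronal microexon factor Srrm4, listed with the SR proteins, had 49.6 ± 1.69. The epithelial factor Esrp1 had no count, and Khdrbs2, Khdrbs3, Celf2 and Mbnl3 were near absent. Ptbp1, the form of dividing and non-neuronal cells, stood 14.6 ± 0.740 times above its neural counterpart Ptbp2 (27.8 ± 3.96 TPM), with ratios of 13.8, 14.9, 14.2 and 15.4. By the longest transcript the mean ratio was 9.63.

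In the RBMX family, Rbmx and Rbmxl1 stood near the middle of this order, and the other 3 members were near its end. Rbmx, at chrX:57383530-57393036 on the minus strand, encodes an X-linked hnRNP-like protein and had 47.2, 54.5, 63.7 and 63.0 TPM, which gave it rank 94 of 157. Rbmxl1, at chr8:78505269-78508898 on the minus strand, had 65.6, 75.3, 77.1 and 75.1 TPM and rank 83. The ratio of Rbmxl1 to Rbmx was 1.39, 1.38, 1.21 and 1.19 by merged exons, above 1 in every library. By the longest annotated transcript the mean ratio was 0.921, with ranks of 110 for Rbmxl1 and 105 for Rbmx, so which copy is higher depends on the length used. In reads, Rbmxl1 took 34.4 ± 2.23 CPM and Rbmx 68.4 ± 8.42. Of the 50-base stretches of Rbmxl1, 79.0% also occur in other annotated genes, against 0.981% for Rbmx, so more of its reads could have been left unassigned. Rbmx2, a spliceosome protein related by name, had 7.09 ± 1.40 TPM and rank 139, and the testis genes Rbmxl2 and Rbmy had no count. Tra2a and Tra2b, splicing activators known to bind RBMX, had 50.3 ± 7.13 and 52.8 ± 5.98 TPM. Their means differed from that of Rbmx by less than its SD, but both were below Rbmx in every library. By the longest transcript both were above it, with 71.6 TPM for Tra2a and 92.0 for Tra2b against 61.8 for Rbmx.

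**Figure D5:**
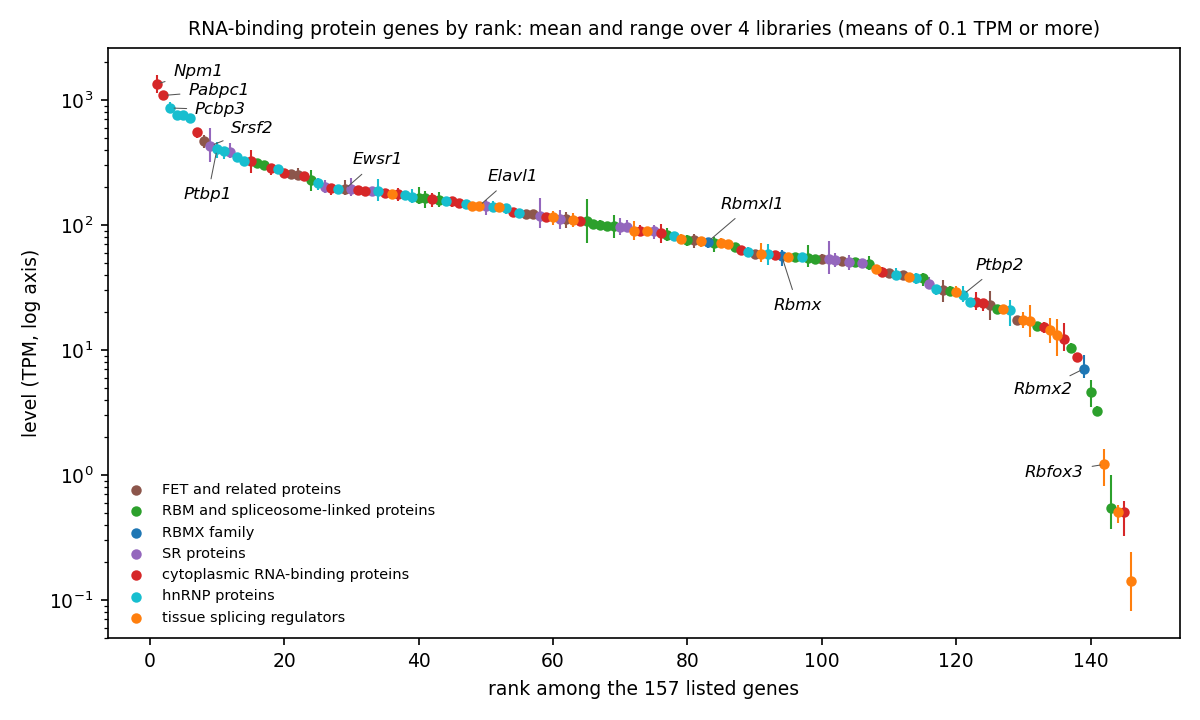
Genes of RNA-binding proteins with a mean of 0.1 TPM or more are placed by rank on the horizontal axis and by TPM on a log vertical axis; points are means, bars span the lowest to the highest of the 4 scramble libraries, and colours are the lists. Npm1, Pabpc1 and Pcbp3 lead, and Rbmxl1 and Rbmx stand at ranks 83 and 94.

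The spread between the 4 libraries was small for most genes. Over the 8593 protein-coding genes with at least 10 TPM in every library, the median SD of log2 CPM was 0.12, with quartiles of 0.08 and 0.19, and 78 genes (0.908%) exceeded 0.5. In 76 of those 78, libraries 1 and 2 lay on one side of libraries 3 and 4, with 45 genes higher and 31 lower in libraries 1 and 2. These 78 were picked by their spread. The same count was not made over all 8593 genes, so no background share stands beside it. Bnip3, a mitophagy receptor induced by low oxygen, had the largest spread, with 114, 145, 32 and 36.1 TPM. Plekha2 (42, 37.7, 13.7 and 12.8 TPM), nitric oxide synthase Nos1 (68.2, 58.9, 25 and 22.4), the giant scaffold gene Ahnak (141, 126, 53.6 and 49.1), Ace (92.5, 105, 37.8 and 39.6) and mt-Atp8 (34.4, 40.5, 10.4 and 12.5) had the same direction. Sdf2l1, a chaperone of the endoplasmic reticulum, had the opposite one, with 117, 114, 329 and 305 TPM, as had 4930412O13Rik, with 12.1, 11.7, 39.7 and 25.6. The immediate early gene Egr1, induced within minutes of stimulation, followed neither, with 29.5, 96.3, 38.0 and 84.7 TPM, high in libraries 2 and 4. Gm17482 also crossed the pairs, with 27.2, 15.2, 16.3 and 51.4 TPM, but it is annotated with 48 exon bases and had only 16, 9, 11 and 34 counts. At the other end Dlg1, Zmat2, Lin37, Ppp1r8 and D5Ertd579e had SDs of log2 CPM of 0.0048 to 0.0073.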

How the data were processed

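Gene-level raw counts from 4 scramble libraries of sorted Neuro-2a cells were used, as deposited by the authors, 1 file per library. Per the submitters' processing notes, cutadapt, STAR 2.5.3a and HTSeq 0.6.1p1 were among the tools and mm10 was the build; the annotation release and the strand setting are not given in the sources used here. Rows that name no gene (52.3% to 55.3% of each scramble file) were dropped. Among 439 genes whose exons lie wholly under exons of the opposite strand, 202 had counts.

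Names, positions, biotypes and merged exon lengths came from GENCODE M21 (GRCm38), which held 55141 of the 55401 identifiers; 260 were not in it and have no TPM. CPM used reads in genes and TPM the merged exon length, with Python 3.11.15, pandas 2.3.3, numpy 2.4.6 and scipy 1.17.1. The calculation was tested on simulated data. For uncertainty from near-identical copies, the share of 50-base stretches found in other annotated genes was counted over a gene's longest annotated transcript. Exons outside that transcript were not covered.

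Only 1 group was described, so no comparison was tested, and no p-value is given. A gene was named present, near absent or low by the thresholds stated with the results. Named were the 20 leading genes by CPM and by TPM, the 15 leading RNA-binding proteins and the RBMX family, up to 10 present genes and the first 3 near-absent genes of each list, and the genes with the 10 largest and 5 smallest spreads; further list members were named after their values were seen. The genes and lists were chosen with earlier results of these data known. Alternatives were trimmed mean of M-values scaling (edgeR 4.0.16, R 4.3.3), the length of the longest transcript, other thresholds, genes that overlap no other gene, and leaving out each library. Results for some listed genes are not reported here; the counts of list members include them.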

Additional observations from a re-analysis of the deposited data

Results flagged for a closer look

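Of 173 values checked over the 4 libraries, 7 had 1 library far from the other 3, with a gap above Dixon's critical value for 4 samples. Chance flags about 1 in 20 if all 4 libraries are independent draws from 1 distribution. Libraries 1 and 2 stood apart from 3 and 4, so the 7 cannot be set against that rate. Tbx2 had 95.5 TPM in library 1, against 72.6 to 73.4 in the others. Library 1 was also apart for Fosl2 (54.5 TPM, against 48.9 to 49.6), for Rplp0 (3884 TPM, against 3705 to 3730) and for Rbmxl1, where it was the lowest (65.6 TPM, against 75.1 to 77.1). Library 2 was apart for Hnrnpk (368 TPM, against 347 to 350) and for Tert (10.9 TPM, against 12.9 to 13.2). Library 3 was apart for Ltk (13.3 TPM, against 7.49 to 8.42).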

How the results depend on the processing

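No paired analysis was possible because the results come from no test and from 1 group. Over 46 values, 325 alternative values were computed; 309 stayed within the limit set for them (the spread between libraries, or 1.5 times for a count) and 16 moved. These values are levels, shares, counts and ranks, which cannot change sign. With the longest transcript, the orders that turned included Rbmxl1 against Rbmx, Npm1 against Pabpc1, Pcbp3 against Pcbp2, and Rbmx against Tra2a and Tra2b. With only the genes that overlap no other gene, the protein-coding share was 97.3%, above the main share by more than 1 SD, and a mean of 760 genes held 50% of the reads, since fewer genes were counted. Of 184 values with a library left out, 1 moved: without library 1, 2 fibroblast and muscle markers were present. The same count came with a threshold of 0.5 TPM or of 1 CPM. With the longest transcript, levels moved for Prph (2486 TPM), Myc (508), Hand2 (418), Xist (216), Rbmxl1 (56.9) and Hoxc10 (32.5). Endothelial and blood markers present fell to 1 with a threshold of 2 TPM or of 1 CPM, and neuropeptide genes to 3 with 1 CPM. Depth limits genes near 3 counts per library.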

Other observations

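Growth and non-coding genes that belong to no lineage list give a further description of the cells. The proliferation genes Mki67 and Top2a had 202, 201, 173 and 176 TPM and 347, 353, 340 and 323 TPM. Of 30 well-known non-coding RNAs 19 were present. Among these 30, Rn7sk and Malat1 were followed by the small Cajal body RNA Scarna2 with 638 ± 85.7 TPM. The Y RNAs Rny1 and Rny3 had 534 ± 158 and 308 ± 66.3 TPM. Some non-coding genes outside the 30 were higher than Scarna2, such as 2410006H16Rik at 2137 ± 762 TPM and Rprl3 at 1342 ± 149. The paraspeckle RNA Neat1, which lies beside Malat1, had 19.3 ± 2.72 TPM against 1399 ± 103 for Malat1. The maternally expressed imprinted RNAs Meg3, Rian, Mirg and H19 were low, with 31 to 57 counts for Meg3 and 4 to 30 for H19, whereas the paternally expressed Kcnq1ot1 and Snhg14 were present at 4.19 ± 0.567 and 1.80 ± 0.105 TPM.

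The telomerase RNA Terc had no count in any library, although Tert was present and no annotated gene overlaps Terc. Rmrp and Rpph1 also had no count, and both overlap another annotated gene on the same strand, with 100% and 68.1% of their 50-base stretches in other genes.

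The listed genes were compared for presence with the 8 knockdown libraries. Of the 122 lineage, other cell type, transmitter and receptor genes present in scramble cells, 119 were present in every knockdown library, and of 192 near absent, 177 were near absent there too. Over all protein-coding genes the same held for 11133 of 11358 present and 7381 of 7986 near absent. The exceptions among the present genes included Slc18a1 and Nmb, at 1.37 and 3.11 TPM in scramble cells.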
